A study of Mus musculus with 12 samples.

Results

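The estradiol (E2) response of the epithelial layer of a mouse uterine co-culture was measured on 6 of the 12 arrays of the series. The 3 epithelial arrays labelled E2 were compared with the 3 epithelial arrays labelled vehicle, across the 21789 probe sets that carry exactly 1 gene symbol, of 35556 on the array. A probe set is a group of probes summarised as 1 log2 signal. Epithelial sheets and stromal cells came from the uteri of CD-1 mice on day 4 of pseudopregnancy and were cultured together, the epithelium on matrigel-coated inserts and the stroma on cover slips. Every culture was first kept overnight in medium free of phenol red with charcoal-stripped serum, which removes steroids. The E2 group then received 10 nM E2 and the vehicle group 0.01% ethanol, both for 2 days, and each layer was harvested and hybridised on its own. The 6 stromal arrays, 3 with E2 and 3 with vehicle, served to judge the content of the inserts and to compare responses between layers. The layers shared the medium, so a response of the inserts is a response in the presence of stroma that received the same hormone. The labels do not say how many mice or uteri were pooled for a culture.

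Estradiol enters cells and binds the estrogen receptor encoded by Esr1, a transcription factor that binds palindromic DNA elements directly or acts through other factors. In the uterus, epithelium and stroma both carry the receptor. Stromal signals take part in the epithelial response to estrogen. The progesterone receptor gene Pgr and Greb1 are widely used readouts of the receptor, and the oxytocin receptor gene Oxtr is induced by estrogen in the uterus.

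The inserts differed in their cell content before any gene was considered. The 23 epithelial markers averaged 10.04, 10.67 and 9.05 on vehicle replicates 1, 2 and 3, and 8.98, 9.19 and 9.33 on the E2 replicates, against 6.58 to 6.94 on the stromal arrays. Vehicle replicate 3 thus lay within the range of the E2 arrays, and vehicle replicates 1 and 2 above it. The keratin gene Krt8, the keratin gene Krt18 and the adhesion gene Epcam were all higher on each epithelial array than on each stromal array. The 19 stromal markers averaged 10.24 to 10.89 with vehicle and 10.89 to 10.90 with E2, and the stromal arrays read 10.96 to 11.26, so the layer labelled epithelial carried stromal transcripts at nearly the level of the stroma itself. Leukocyte markers averaged 8.31 to 8.51 with vehicle and 8.35 to 9.14 with E2. The 8 mesothelial markers averaged 9.57 to 10.08 and 9.43 to 9.65, above the 7.38 to 7.75 of the stromal arrays. Smooth muscle markers (9.48 to 9.81 over the 6 arrays, 10.45 to 10.72 in stroma) and endothelial markers (7.53 to 7.61) varied less. In RNA from a whole layer, fewer cells of a type and less RNA per cell cannot be told apart. No marker of the epithelial, stromal, smooth muscle or endothelial lists passed the limma test between E2 and vehicle. Of these lists 9, 7, 3 and 2 members had an unadjusted p under 0.05, as did 2198 of all 21789 tested probe sets. The mesothelial marker Msln and the leukocyte marker Csf1r passed and are described below.

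**Figure D1:**
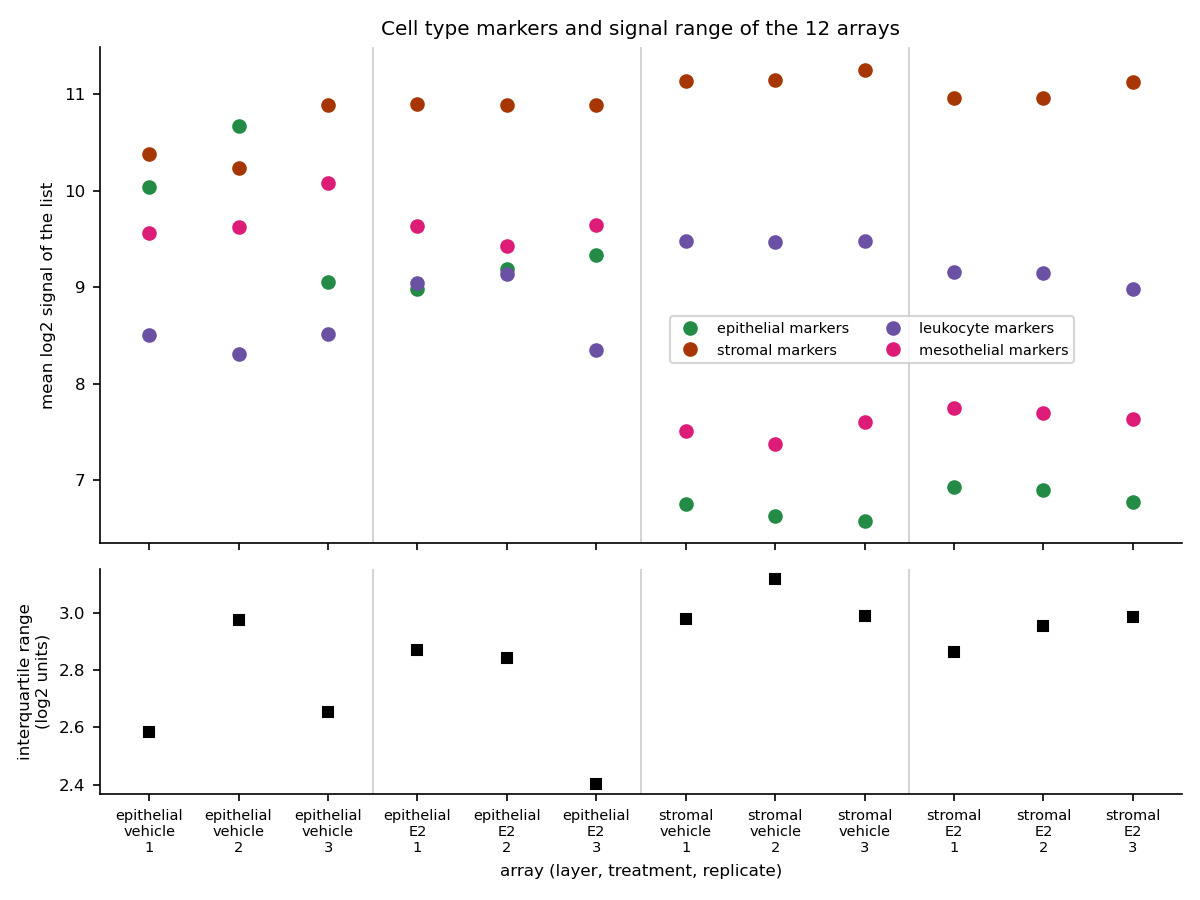
Upper axis, mean log2 signal of 4 marker lists on each of the 12 arrays. Lower axis, interquartile range of the probe set signals of the same arrays in log2 units. The epithelial marker mean of vehicle replicate 3 (9.05) lies among those of the 3 E2 arrays (8.98 to 9.33), below those of vehicle replicates 1 and 2 (10.04 and 10.67).

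Some arrays also stood apart in their likeness or signal range, and the source of this was not tested. E2 replicates 1 and 2 of the epithelium were more alike than any other pair of that layer: the difference between them had an SD of 0.141 over probe sets, against 0.275 to 0.505 for the other pairs of one group. The same pair of numbers was the closest in the E2 stroma (0.109, against 0.194 and 0.213). The signal range (interquartile range over probe sets) was narrower on vehicle replicates 1 and 3 and E2 replicate 3 (2.40 to 2.65) than on the other 3 epithelial arrays (2.84 to 2.97). Results are therefore also given with E2 replicates 1 and 2 averaged to a single array, and without single arrays where that matters. All values below are log2 signals, a difference is E2 minus vehicle in log2 units with its standard error from limma, and n is 3 arrays in each group. Adjusted p-values are Benjamini-Hochberg adjusted over the 23410 probe sets with a symbol, and a change passed when this was under 0.05.

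With E2, 108 probe sets of 95 genes rose in the epithelial layer, 0.496% of those tested, and 36 probe sets of 35 genes fell, 0.165% of those tested (0.661% together). None of the 144 had groups that overlapped. By the lack of overlap alone 7.02% of the tested probe sets were higher with E2 and 8.37% lower. At least 2-fold changes made up 79 of the 108 and 19 of the 36. The median difference was 1.34 among those that rose and -1.05 among those that fell, against 0.03 over all tested. With E2 replicates 1 and 2 averaged, 14 of the 144 passed, all of them higher. Those were Idh1, Akr1c14, Amtn, Kap, Ptgdr2, Glul, Pcp4l1, Trdn, Bpifc, Nrn1, Tafa5, Btbd3, Tlnrd1 and Tnfrsf19. The number of calls was 33 without vehicle replicate 1, 21 without E2 replicate 1 and 13 without E2 replicate 2. It was 411 without vehicle replicate 3 and 389 without E2 replicate 3. Of the 50 genes named below that passed, Pgr, Idh1, Akr1c14, Ptgdr2, Nrn1, Glul, Btbd3, Tlnrd1, Kap, Pcp4l1 and Bpifc passed without each single array, and the other 39 lost their call without at least 1.

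The estrogen readouts were among the largest differences. Pgr, the progesterone receptor, measured 7.25, 8.03 and 7.49 with vehicle and 10.75, 10.85 and 10.12 with E2. The groups were separated by more than 2 log2 units, and Pgr rose by 2.98 ± 0.33 (7.89-fold, adjusted p = 0.00231). Oxtr, the oxytocin receptor, measured 7.63, 7.74 and 8.04 with vehicle and 10.93, 11.07 and 10.74 with E2. It rose by 3.11 ± 0.45 (8.64-fold, adjusted p = 0.0101), with no overlap. Greb1, a cofactor of the estrogen receptor, measured 6.47, 8.63 and 6.51 against 10.85, 10.82 and 10.46. Its groups did not overlap either, but vehicle replicate 2 stood 2 units above the other vehicle arrays and the difference of 3.51 ± 0.83 did not pass (adjusted p = 0.0948). S100g, the calcium-binding protein calbindin-D9k, went from 7.29, 7.55 and 7.42 to 11.30, 11.24 and 10.23. This was a rise of 3.50 ± 0.51 (11.3-fold, adjusted p = 0.0104), lowest on E2 replicate 3. Oxtr and S100g did not pass with E2 replicates 1 and 2 averaged (adjusted p = 0.171 and 0.178), nor did Pgr (0.0571).

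**Figure D2:**
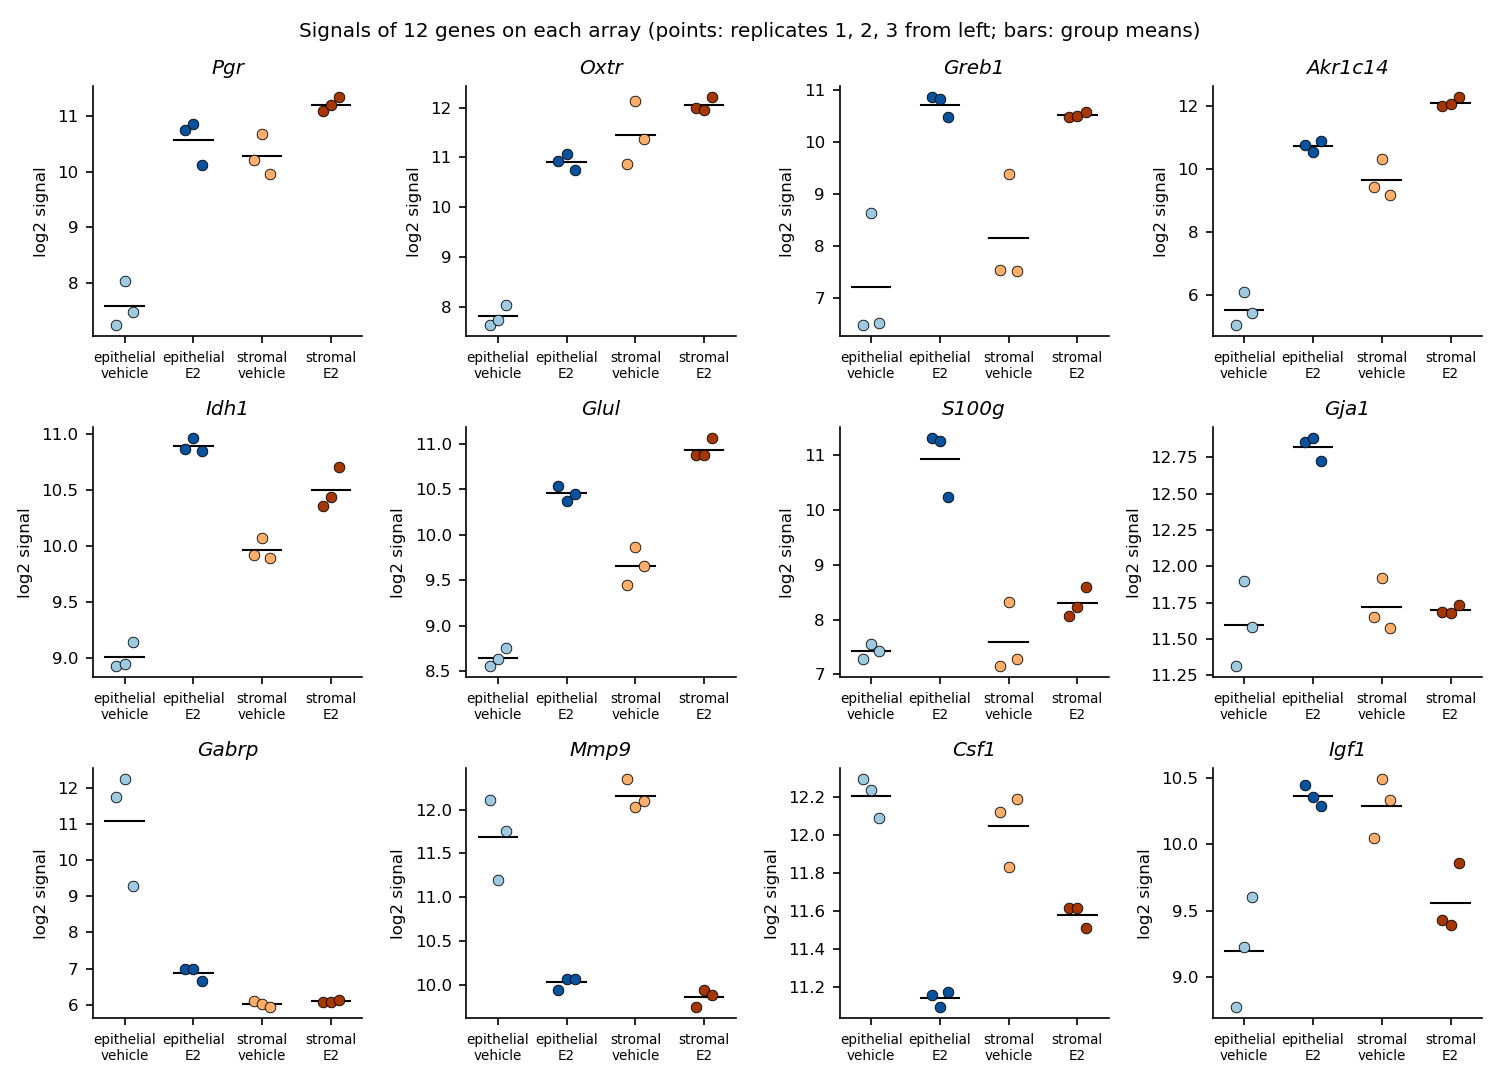
Log2 signal (vertical axes, separate scale per gene) of 12 genes in the 4 groups of 3 arrays. Points are replicates 1, 2 and 3 from left to right and bars are group means. Pgr, Oxtr, Greb1, Akr1c14, Idh1, Glul, S100g, Gja1 and Igf1 are higher on every epithelial E2 array than on every epithelial vehicle array, and Gabrp, Mmp9 and Csf1 are lower.

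Of the 29 measured genes listed as estrogen receptor targets, 2 rose (Pgr and Oxtr) and 0 fell, against 0.496% and 0.165% of all tested probe sets. The other 27 did not pass. The list's median was 0.13, and 10 members were higher and 2 lower on all E2 arrays. Of all tested probe sets 7.02% were higher and 8.37% lower. Among members that did not pass, the spindle checkpoint gene Mad2l1 differed by 0.98 (adjusted p = 0.0518), Igf1 by 1.16, the signalling gene Rasd1 by 1.40 and the cyclin gene Ccnd1 by -1.66 (adjusted p = 0.0669). Igf1, an insulin-like growth factor, measured 8.78, 9.23 and 9.60 with vehicle and 10.45, 10.36 and 10.29 with E2 (adjusted p = 0.103). Esr1 itself measured 10.08, 10.01 and 10.42 against 10.34, 10.41 and 10.51, overlapping groups that differed by 0.25 ± 0.23 (adjusted p = 0.922). Ltf, which encodes lactoferrin, a secreted iron-binding protein, measured 11.87, 12.29 and 10.28 against 10.05, 10.86 and 11.23. It overlapped between the groups (-0.76 ± 0.44, adjusted p = 0.688).

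The promoters of these readouts are shown because they carry differing amounts of the receptor's binding letters. The 250 bases before the annotated start, from RefSeq on GRCm38.p6, were searched on both strands for the full estrogen response element, which is GGTCA and TGACC set 3 bases apart, and for its half-site GGTCA, which is also part of the full element. They run 5′ to 3′ on the gene's strand, and capitals mark half-sites. For Greb1, which has 2 starts in the table, the upstream one is shown.
Pgr, chr9:8899583-8899832 (+ strand): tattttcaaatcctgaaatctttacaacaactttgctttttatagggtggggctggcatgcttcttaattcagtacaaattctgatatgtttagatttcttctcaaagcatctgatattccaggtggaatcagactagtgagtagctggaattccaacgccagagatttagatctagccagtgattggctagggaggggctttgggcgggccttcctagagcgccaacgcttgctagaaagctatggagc
Greb1, chr12:16800887-16801136 (minus strand): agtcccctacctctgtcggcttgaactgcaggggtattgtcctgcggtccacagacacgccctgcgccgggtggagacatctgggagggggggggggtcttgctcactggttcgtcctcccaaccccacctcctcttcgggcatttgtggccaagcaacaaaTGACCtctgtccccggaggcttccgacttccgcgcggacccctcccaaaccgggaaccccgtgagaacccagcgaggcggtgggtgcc
Oxtr, chr6:112489826-112490075 (minus strand): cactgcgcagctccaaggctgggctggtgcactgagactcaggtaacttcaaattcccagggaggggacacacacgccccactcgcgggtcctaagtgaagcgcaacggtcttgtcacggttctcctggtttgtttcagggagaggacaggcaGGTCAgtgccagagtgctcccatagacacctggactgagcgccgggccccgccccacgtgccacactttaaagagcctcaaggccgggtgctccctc
S100g, chrX:162964600-162964849 (minus strand): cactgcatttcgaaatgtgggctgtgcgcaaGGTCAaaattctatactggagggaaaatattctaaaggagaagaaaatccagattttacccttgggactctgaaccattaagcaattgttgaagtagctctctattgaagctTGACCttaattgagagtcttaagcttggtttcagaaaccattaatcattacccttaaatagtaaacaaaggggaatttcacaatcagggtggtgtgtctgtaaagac

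Pgr had no half-site in this window, Greb1 had 1 (88 bases before the start), Oxtr 1 (97 bases) and S100g 2 (219 and 107 bases). A promoter was found for 76 of the 95 genes that rose and 24 of the 35 that fell. None of these held the full element, which was in 0.0639% of all 32851 promoters of the table. The half-site was in 22 of the 76 (28.9%) and 3 of the 24 (12.5%), against 35.2% of all promoters. A GC box (GGGCGG, both strands) was in 42 of the 76 (55.3%) and 20 of the 24 (83.3%), against 32.7%. An AP-1 site (TGANTCA, both strands) was in 5 (6.58%) and 3 (12.5%), against 6.75%. For each gene that passed 1 promoter was taken, whereas the 32851 promoters count every start of 27025 genes, tested here or not. The shares were thus not compared with those of the tested genes. A match describes letters in this window and not a bound site.

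Idh1 and Akr1c14, both enzymes, had the smallest p-values of all genes, followed by the receptor gene Ptgdr2. Akr1c14, a hydroxysteroid dehydrogenase that acts on steroids, measured 5.04, 6.10 and 5.43 with vehicle and 10.75, 10.53 and 10.89 with E2. It had the largest difference of any gene that passed, 5.20 ± 0.46 (36.7-fold, adjusted p = 0.00139). Idh1, the cytosolic isocitrate dehydrogenase that makes NADPH, measured 8.93, 8.95 and 9.14 against 10.86, 10.96 and 10.85. The spread within each group was far below its rise of 1.88 ± 0.17 (adjusted p = 0.00139). Glul, glutamine synthetase, measured 8.56, 8.63 and 8.76 against 10.54, 10.37 and 10.45 and rose by 1.80 ± 0.18 (adjusted p = 0.00168). Both of its probe sets passed. Each of these genes was the lone riser of its list, and none fell, while 0.496% of all tested probe sets rose. The lists had 19 measured genes of steroid metabolism (median -0.05), 26 NADPH and glutathione enzymes (median 0.12) and 22 genes of glutamine and amino acid transport (median -0.15). Ptgdr2, a prostaglandin D2 receptor, likewise was the 1 riser of 23 prostaglandin genes. It went from 6.54, 6.70 and 6.93 to 9.24, 9.15 and 9.09 (2.44 ± 0.22, adjusted p = 0.00146), again with no overlap. All 4 genes passed with the alike E2 arrays averaged and without each array in turn.

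Nrn1, a neuritin anchored at the cell surface, rose by 3.00 ± 0.30 (adjusted p = 0.00168), from 7.47, 8.04 and 8.25 to 11.04, 11.02 and 10.70. Btbd3, a BTB domain protein, rose by 1.46 ± 0.15 and Tlnrd1, an actin-bundling protein related to talin, by 1.59 ± 0.16. Kap, the kidney androgen-regulated protein, rose by 1.75 ± 0.18 and Pcp4l1, a relative of a calmodulin-binding peptide, by 2.01 ± 0.21. Bpifc, of the lipid-binding BPI family, rose by 2.83 ± 0.31, and the G protein subunit gene Gng12 by 0.84 ± 0.10. For Pcp4l1 and Bpifc, E2 replicate 3 was the lowest E2 array (8.17 against 9.08 and 9.03, and 8.52 against 9.96 and 10.00), yet still above all vehicle arrays. Their adjusted p-values lay between 0.00168 and 0.00369.

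Trdn, a gene of the calcium-release complex of muscle known as triadin, stood out by its number of probe sets and was singled out after its values were seen. It had 19 probe sets with 1 symbol, of which 10 rose and 0 fell, and all 19 differences were above 0. The rises ran from 0.98 to 4.03. The 10 that passed were higher on all 3 E2 epithelial arrays than on all 6 stromal arrays. Without them 98 probe sets rose. E2 replicate 3 was the lowest E2 array on each of these 10, and it was also the E2 array with the lowest leukocyte mean (8.35, against 9.05 and 9.14). With the alike E2 replicates 1 and 2 averaged 1 of the 10 passed, and at equal epithelial content 4 did. With the leukocyte mean as a covariate the largest Trdn difference went from 4.03 to 2.71, another from 2.07 to 1.23 and one more from 1.46 to 0.75. These are examples, and the other Trdn probe sets are not given with this covariate. All 108 rises kept a median of 87.3% of their size with it. Leukocyte means were 8.99 to 9.48 on the stromal arrays, where the highest value of the 10 Trdn probe sets was 7.77. Whether leukocyte content has a part in the Trdn values was not tested.

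**Figure D3:**
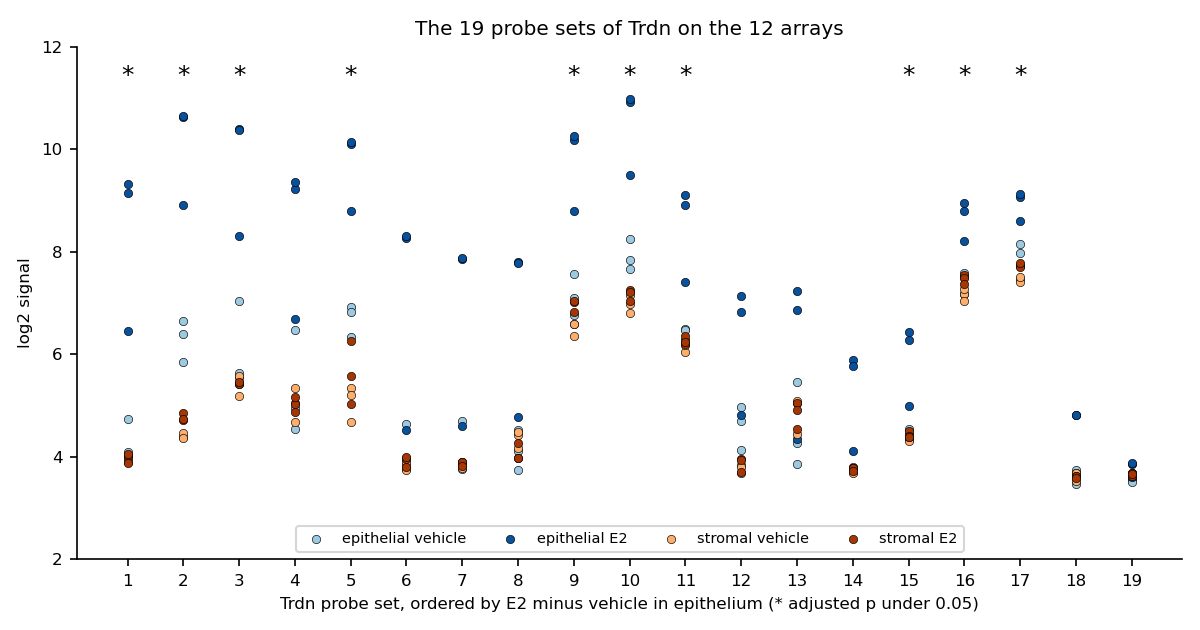
Log2 signal (vertical axis) of the 19 Trdn probe sets (horizontal axis, ordered by the epithelial difference) on the 12 arrays. Stars mark the 10 that passed, and in all 10 the darker blue E2 epithelial points lie above the vehicle and stromal points, with 1 E2 array below the other 2.

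Among secreted signals and their receptors the changes went in both directions. Of all tested probe sets 0.496% rose and 0.165% fell. Fgf2, a fibroblast growth factor, measured 10.08, 9.95 and 10.12 with vehicle and 11.33, 11.28 and 11.06 with E2 and rose by 1.17 ± 0.19 (adjusted p = 0.017), the 1 of 21 FGF genes to pass. Fgf10, a growth factor known from stroma, measured 9.05, 8.40 and 10.45 against 10.10, 10.27 and 10.28. Those groups overlapped (0.92 ± 0.48, adjusted p = 0.623). Of 34 genes of BMP and TGF-beta signalling, Bmp6, a bone morphogenetic protein, rose by 0.94 ± 0.17 and Tgfbr1, a TGF-beta receptor, fell by 0.94 on the log2 scale (± 0.12, adjusted p = 0.00558). Bmp8a, another bone morphogenetic protein, read 7.01, 7.10 and 6.72 against 7.56, 7.71 and 7.32, higher with E2 on every array, and did not pass (0.59 ± 0.34, adjusted p = 0.678). Of 35 WNT genes, the antagonists Dkk2 and Sfrp2 rose and 0 fell. Dkk2 went from 6.96, 7.59 and 7.37 to 9.36, 9.62 and 8.75 (1.94 ± 0.33, adjusted p = 0.0224). Sfrp2 went from 6.96, 6.74 and 8.55 to 9.57, 8.99 and 10.31 (2.21 ± 0.43, adjusted p = 0.0452), with vehicle replicate 3 close to the E2 arrays.

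Socs2, an inhibitor of cytokine signalling, measured 9.61, 9.85 and 9.75 with vehicle and 11.35, 11.40 and 11.19 with E2. Its rise of 1.58 ± 0.19 (adjusted p = 0.0038) was the 1 call among 22 genes of LIF, STAT3 and SOCS signalling and was seen in both of its probe sets. Of all tested probe sets 0.661% passed. Gja1, the gap junction protein connexin 43, rose by 1.22 ± 0.18 (adjusted p = 0.0125), from 11.31, 11.90 and 11.58 to 12.86, 12.88 and 12.72. Vldlr, a lipoprotein and reelin receptor, rose by 1.32 ± 0.20, Klf9, a Krüppel-like factor that partners the progesterone receptor, by 0.73 ± 0.14, and Gadd45a, a growth arrest gene, by 0.67 ± 0.13. The keratin gene Krt23 rose by 1.12 ± 0.18, from 6.21, 6.21 and 5.97 to 7.43, 7.45 and 6.88, in a list of 26 keratin and squamous genes whose median was -0.11. Adjusted p-values of these 4 ran from 0.012 to 0.0492.

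Among matrix-degrading enzymes Mmp9 and Mmp14 fell. Mmp9, a gelatinase, measured 12.11, 11.20 and 11.76 with vehicle and 9.94, 10.07 and 10.07 with E2. The E2 arrays were all more than 1 unit below the vehicle arrays, and Mmp9 fell by 1.67 on the log2 scale (± 0.22, adjusted p = 0.0062). Mmp14, a membrane-bound protease, fell by 0.81 (± 0.12, adjusted p = 0.0138), from 12.31, 12.32 and 12.57 to 11.59, 11.57 and 11.60. These were the 2 of 23 matrix proteases and inhibitors to pass, as 0.661% of all tested probe sets did. The other 21 did not pass. The list's median was -0.38, with 10 members lower and 2 higher on all E2 arrays (8.37% and 7.02% of all tested probe sets). The lower ones included the plasminogen activator gene Plau (-0.94) and the protease inhibitor gene Timp2 (-0.30), which did not pass. The matrix itself changed in both directions. Vcan, the proteoglycan versican, fell by 1.53 on the log2 scale (± 0.25, adjusted p = 0.0199), with vehicle arrays between 10.60 and 11.47 and E2 arrays at 9.56, 9.87 and 9.07. Thbs2, a thrombospondin, rose by 0.92 ± 0.13 (adjusted p = 0.00788), from 12.36, 12.26 and 12.66 to 13.35, 13.40 and 13.29. The remaining 27 of 29 collagen and matrix assembly genes did not pass.

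Among cytokines and chemokines Csf1, Csf2 and Cxcl5 fell. Csf1, the macrophage growth factor, measured 12.29, 12.24 and 12.09 with vehicle and 11.16, 11.09 and 11.17 with E2, without overlap. It fell by 1.07 on the log2 scale (± 0.16, adjusted p = 0.0138). Csf2, the granulocyte-macrophage factor, went from 7.34, 8.23 and 6.10 to 5.11, 5.32 and 5.20 (-2.02 ± 0.38, adjusted p = 0.0393). Cxcl5, a neutrophil chemokine, went from 8.25, 7.77 and 9.08 to 6.55, 6.53 and 6.12 (-1.96 ± 0.39, adjusted p = 0.0486). Both had their widest spread among the vehicle arrays, with replicate 3 lowest for Csf2 and highest for Cxcl5. Of 28 cytokine and chemokine genes these 3 fell, 0 rose and 25 did not pass, while 0.165% of all tested probe sets fell and 0.496% rose. The median was -0.43, with 12 members lower on all E2 arrays and 2 higher (8.37% and 7.02% of all tested probe sets). Tnf (-1.47), Cxcl10 (-1.27) and Cx3cl1 (-1.22) were examples of those lower on all E2 arrays that did not pass. The 2 that were higher are not named here. Of 22 genes that NF-kappaB induces in feedback on itself, the inhibitor gene Nfkbie fell by 0.69 on the log2 scale (± 0.12, adjusted p = 0.0204), 0 rose, and the median was -0.18. The leukocyte list moved in the other direction. Of its 16 measured markers, Csf1r, the receptor for the Csf1 product, rose by 1.01 ± 0.15 (adjusted p = 0.0141), from 7.46, 7.02 and 7.63 to 8.42, 8.48 and 8.23, and the median was 0.52. The pan-leukocyte marker Ptprc read 6.94, 6.39 and 6.82 against 7.03, 7.28 and 6.55, and E2 replicate 3 read as low as the vehicle arrays in the list's mean. With the leukocyte mean as a covariate Csf1 differed by -1.03 (adjusted p = 0.153), Csf2 by -1.82 (0.403) and Cxcl5 by -2.30 (0.168), none of which passed. Over all 36 falls the median was 96.1% of the size without it, and 1 still passed.

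Hypoxia and glycolysis genes gave the highest list median, 0.55. Of 27 measured, 2 rose, as 0.496% of all tested probe sets did, 0 fell and 25 did not pass. On all E2 arrays 18 were higher than on all vehicle arrays, as 7.02% of all tested probe sets were. The mean of the list was 10.06, 9.82 and 10.24 with vehicle and 10.69, 10.63 and 10.46 with E2, against 10.50 to 10.76 in stroma, so vehicle inserts were lowest of all. Adm, the vasodilator peptide adrenomedullin, rose by 1.38 ± 0.24 (adjusted p = 0.024), from 10.73, 10.24 and 10.98 to 12.18, 12.18 and 11.73. Ak4, a mitochondrial adenylate kinase, rose by 1.00 ± 0.18 (adjusted p = 0.0323) in its brighter probe set, and the other differed by 0.54 and did not pass (adjusted p = 0.300). Among those that did not pass, the glycolytic enzyme genes Pgk1, Pfkp and Aldoc differed by 0.65, 0.95 and 1.08. The carbonic anhydrase gene Car9 differed by 1.49 and the mitophagy gene Bnip3 by 1.11. Of the 27 differences 24 were above 0 and 3 below. The median went from 0.55 to 0.36 without vehicle replicate 2, to 0.30 at equal epithelial content, and to 0.28 when the E2 arrays were set against vehicle replicate 3 alone. Oxidative phosphorylation (26 genes, median 0.11) and cholesterol and fatty acid synthesis (20 genes, median 0.13) had 0 calls by limma, with 0 and 1 at an unadjusted p under 0.05. Of all 21789 tested probe sets 2198 had such a p.

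Several genes of the cell surface and of adhesion were among the falls. Gabrp, a GABA receptor subunit, had the largest fall. It measured 11.75, 12.23 and 9.28 with vehicle and 6.99, 6.99 and 6.66 with E2, a difference of -4.21 ± 0.55 (18.5-fold, adjusted p = 0.00618). Vehicle replicate 3 lay between the E2 arrays and the other vehicle arrays. Msln, the surface glycoprotein mesothelin, measured 11.33, 11.86 and 10.90 against 10.13, 10.03 and 9.99 and fell by 1.32 on the log2 scale (± 0.21, adjusted p = 0.0164). Epha4, an ephrin receptor, fell by 1.60 (± 0.24), the integrin gene Itga3 by 1.03 (± 0.20), the basement membrane proteoglycan gene Agrn by 1.18 (± 0.23) and the desmosome gene Pkp1 by 1.14 (± 0.22). In each of the last 4, vehicle replicate 3 was the vehicle array nearest to E2. Pkp1 was the 1 faller of 31 junction and polarity genes (median -0.49). Of the 31, 11 were lower on all E2 arrays, as 8.37% of all tested probe sets were. Itga3 and Agrn were the 2 fallers of 28 integrin and laminin genes (median -0.18). Of all tested probe sets 0.165% fell. The 22 mucin and glycosylation genes had a median of -0.42 and 0 calls by limma, with 9 at an unadjusted p under 0.05. Of all 21789 tested probe sets 2198 had such a p.

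Some members of the cytoskeletal and guidance lists passed, as did 0.661% of all tested probe sets. Myh9, the nonmuscle myosin heavy chain, measured 11.91, 11.63 and 11.79 with vehicle and 11.02, 11.18 and 11.01 with E2 and fell by 0.71 on the log2 scale (± 0.12, adjusted p = 0.0203). Its second, dimmer probe set differed by -1.01 and did not pass (adjusted p = 0.0909). Myh9 was the 1 of 31 actomyosin and focal adhesion genes to pass, with 10 lower and 5 higher on all E2 arrays. Of all tested probe sets 8.37% were lower and 7.02% higher. Of 26 YAP and SRF targets, the kinase gene Nuak2 (-1.21 ± 0.24) and the actin-binding gene Enc1 (-0.79 ± 0.13) fell. In the list of 36 semaphorin, plexin, ephrin and other guidance genes, Nrn1 rose, Epha4 and the netrin gene Ntn1 (-1.12 ± 0.21) fell, and 12 members were lower on all E2 arrays (median -0.24). Disp1, which releases hedgehog proteins from cells, fell in both of its probe sets (-0.72 ± 0.14 in the brighter). The secretory kinase gene Fam20c (-0.83 ± 0.12), the adaptor gene Apbb2 (-0.89 ± 0.13) and Cachd1, of the calcium channel subunit family (-0.77 ± 0.13), fell without overlap, with adjusted p-values of 0.0102 to 0.0199.

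Cell cycle and stress lists held almost no calls, and 0.661% of all tested probe sets passed. Counts at an unadjusted limma p under 0.05 are given beside calls where 0 passed. Of all 21789 tested probe sets 2198 had such a p. Of all tested probe sets 7.02% were higher and 8.37% lower on all E2 arrays. Of 27 mitosis genes 0 passed by limma (1 unadjusted), the median was 0.10, and 5 were higher on all E2 arrays, led by Mad2l1. The 31 genes of DNA replication and G1/S had a median of 0.05 with 10 higher and 2 lower on all E2 arrays, and 0 passed (4 unadjusted). Of 27 unfolded protein and heat shock genes 0 passed (5 unadjusted), the median was -0.18, and 10 were lower on all E2 arrays. These included the chaperone genes Dnajb11 (-0.55) and Pdia6 (-0.45). Ribosome biogenesis and MYC targets (27 genes, median -0.11, 8 lower on all E2 arrays, 2 unadjusted) and the interferon response (22 genes, median -0.31, 6 lower on all E2 arrays, 1 unadjusted) also had 0 calls.

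How far each change depended on the content of the inserts was measured by adding the epithelial marker mean of each insert as a covariate. At equal epithelial content 32 probe sets rose (0.147%) and 14 fell (0.0643%), and 32 of these 46 were among the 144. The 108 rises kept a median of 94.4% of their size (56.1% to 128%), and 85 of them kept at least 80%. The 36 falls kept a median of 84.1% (52.8% to 132%), and 20 kept at least 80%. With the stromal marker mean in its place the medians were 92.9% and 81.3%, and with the leukocyte mean 87.3% and 96.1%. Against vehicle replicate 3 alone, the vehicle insert with the E2 inserts' epithelial content, the median rise was 1.17 and the median fall -0.80. At equal content 25 of the rises and 7 of the falls still passed. Without vehicle replicate 3, and likewise without E2 replicate 2, none of the tested probe sets passed at equal content by limma (368 and 549 at an unadjusted p under 0.05). Without vehicle replicate 1 there were 6 calls, without E2 replicate 1 there was 1, and without E2 replicate 3 there were 392.

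**Figure D4:**
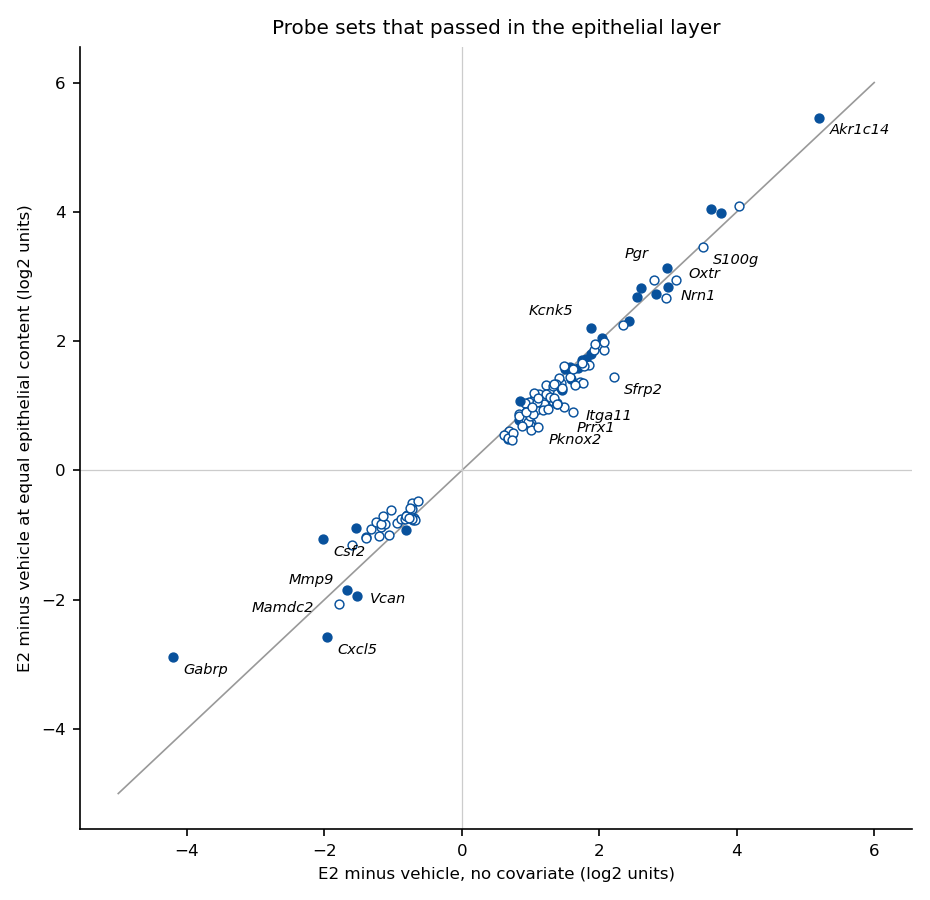
Each point is 1 of the 144 probe sets that passed, with the difference without a covariate (horizontal axis) and at equal epithelial content (vertical axis), both in log2 units. Filled points also passed at equal content, and points on the diagonal line kept 100% of their size. Gabrp and Csf2 lie above the diagonal on the lower side, with smaller falls at equal content, and Cxcl5 and Vcan below it.

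The readouts of the hormone kept their size. Pgr differed by 3.13 ± 0.42 at equal content (adjusted p = 0.0215), Akr1c14 by 5.46 ± 0.57 (0.0128), Idh1 by 1.79 ± 0.21 (0.0138) and Glul by 1.73 ± 0.23 (0.0215). Oxtr kept 94.8% and S100g 98.5% of their difference, without passing (adjusted p = 0.0809 and 0.0779). Greb1 differed by 4.33 ± 0.98 (adjusted p = 0.171), more than without the covariate. Of the falls, Mmp9 (112%), Mmp14 (114%), Vcan (128%) and Cxcl5 (132%) were larger at equal content and passed. Csf2 kept 52.8% and passed. Among the adhesion and surface genes Itga3 kept 59.3%, Pkp1 61.7%, Gabrp 68.7%, Msln 69.5% and Agrn 71.1%. Of these 5, Gabrp alone passed at equal content (-2.89 ± 0.31, adjusted p = 0.0128). Among the rises the smallest share was kept by Itga11, a collagen-binding integrin singled out after its values were seen (56.1%). Ak4 (61.8%), Klf9 (63.9%), Sfrp2 (65.0%) and Adm (74.0%) kept less than most, and none of these passed at equal content.

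The gene lists divided in the same way. Junctions and polarity went from a median of -0.49 to -0.10, and from -0.42 to -0.07 without the 5 genes it shares with the covariate. Mucins and glycosylation went from -0.42 to -0.05. The epithelial markers, which define the covariate, went from -0.74 to 0.02. Cytokines and chemokines (-0.43 and -0.42), matrix proteases (-0.38 and -0.50), NF-kappaB feedback (-0.18 and -0.25) and the guidance genes (-0.24 and -0.21) read alike or lower at equal content. Mitosis went from 0.10 to 0.24. The median over all tested probe sets was 0.03 without and -0.01 with the covariate. The 515 probe sets at least 2-fold higher in epithelium than in stroma, averaged over treatments, had a median of -0.45 without and -0.05 with the covariate. For the 534 at least 2-fold higher in stroma these were 0.28 and 0.13. Of the rises 20.4% and of the falls 25.0% were in the first class, against 2.36% of all tested, and 13.9% and 5.56% were in the second, against 2.45%. The classes average over the same inserts that gave the calls, so these shares are not independent of the calls.

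**Figure D5:**
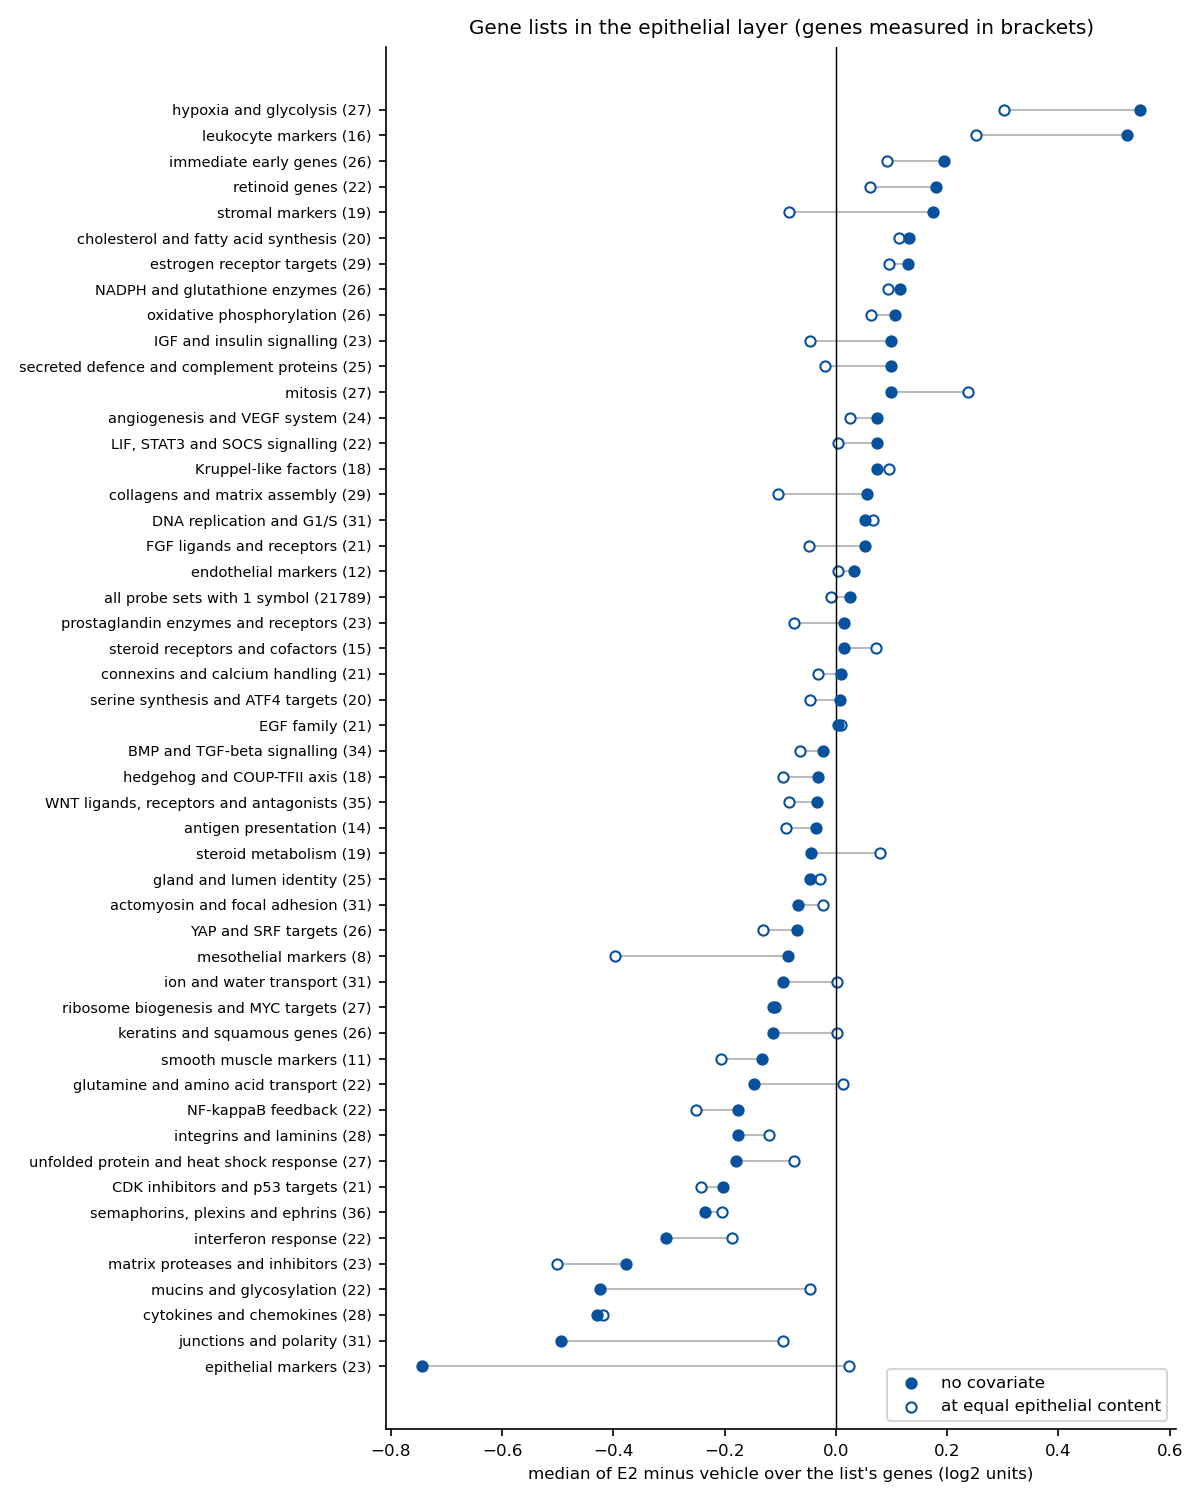
Median E2 minus vehicle difference (horizontal axis, log2 units) of each gene list in the epithelial layer, without a covariate (filled) and at equal epithelial content (open), with the number of measured genes in brackets. Hypoxia and glycolysis is highest without a covariate (0.55) and epithelial markers lowest (-0.74), and the markers, junctions and mucins move to near 0 at equal content.

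At equal content alone, 14 probe sets passed. Of the higher ones, Fads2b, Adgrg7, Sprr2f, Trpv6, Cftr and Myl7 had their vehicle arrays in the same order as the epithelial marker mean, and Tex2, named here after its values were seen, did not (8.14, 9.77 and 8.28). Fads2b, of the fatty acid desaturase family, measured 5.35, 7.65 and 4.74 with vehicle and 7.44, 7.93 and 7.82 with E2. The groups overlapped, the plain difference was 1.81 ± 0.54, and at equal content it was 3.07 ± 0.36 (adjusted p = 0.0138). Adgrg7, an adhesion G protein-coupled receptor, measured 7.07, 8.85 and 5.86 against 8.92, 9.56 and 8.73 (3.08 ± 0.34 at equal content, adjusted p = 0.0128). Sprr2f, a small proline-rich epithelial protein, measured 11.80, 12.38 and 10.91 against 12.04, 12.19 and 12.32 (1.16 ± 0.17, adjusted p = 0.027). The calcium channel gene Trpv6 (1.67 ± 0.26), the chloride channel gene Cftr (1.32 ± 0.21) and the myosin light chain gene Myl7 (1.13 ± 0.18) were likewise higher, with plain differences of 0.48, 0.26 and 0.80. Genes lower at equal content alone were highest on vehicle replicate 3. Cyp26a1, which degrades retinoic acid, measured 6.69, 5.92 and 8.10 against 6.14, 6.04 and 6.23 (-1.73 ± 0.23 at equal content, adjusted p = 0.0215). The matricellular gene Ccn4 (-1.32 ± 0.19), the phosphodiesterase gene Gdpd2 (-1.49 ± 0.22), the proteoglycan gene Fmod (-1.37 ± 0.20) and the cathepsin gene Ctsk (-1.34 ± 0.23) were among them. Without vehicle replicate 3 the plain difference was -0.12 for Trpv6, -0.34 for Cftr, and 0.01 and 0.00 for Gdpd2 and Fmod.

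The response of the layer was last set against that of the stroma beneath it. The difference between the 2 responses passed for 179 probe sets (0.822%), including 43 of the 144. In these the epithelial change was the more positive for all 35 rises and the more negative for all 8 falls. The 144 were chosen by the epithelial change, which is part of this difference, so that sign is not a separate result. Akr1c14 rose by 2.47 ± 0.24 in stroma (adjusted p = 4e-05), from 9.65 to 12.11 on average, and the layers differed by 2.73 (adjusted p = 0.0371). Pgr (0.92 ± 0.17 in stroma), Idh1 (0.54 ± 0.09) and Bpifc (1.02 ± 0.16) passed in both layers with a larger difference in epithelium. Nrn1 differed by 0.02 ± 0.16 in stroma and Gja1 by -0.02 ± 0.09, and their layer differences of 2.98 and 1.24 passed (adjusted p = 0.00595 and 0.0184). Tlnrd1 rose in epithelium and fell in stroma (by 0.39 on the log2 scale, ± 0.08). Itga3 did the reverse, with 0.66 ± 0.10 in stroma. Igf1 fell in stroma by 0.73 (± 0.14, adjusted p = 0.00593), and its layer difference of 1.89 passed (adjusted p = 0.0193), although its epithelial change did not. Mmp9, Csf1, Cxcl5, Nfkbie, Mmp14 and Tgfbr1 fell in both layers, and their layer differences did not pass (adjusted p = 0.147 to 1.00). On the E2 inserts 61 of the 108 rises read above all 6 stromal arrays, as 11.8% of all tested probe sets did. Of the falls 13 of 36 read below all 6, as 16.2% of all tested did. The calls rest on the same E2 inserts, so neither count is independent of them.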

How the data were processed

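RNA of 12 samples (2 layers, E2 or vehicle, 3 arrays each) was measured on Affymetrix Mouse Gene 1.0 ST arrays. The authors deposited log2 values made by robust multi-array averaging (RMA), per the submitters' processing notes; version and settings are not given in the sources used here. Array medians lay between 7.38 and 7.43, so a shift common to all genes would not be seen. No scanner files were used, and the number of arrays limits the precision. Probe sets were named from the platform annotation: 21789 had 1 symbol, 1621 several and 12146 none, and 21698 of the first matched RefSeq.

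All 12 arrays were fitted with limma 3.58.1 in R 4.3.3, with 4 group means, a weight per layer and Benjamini-Hochberg adjustment over the 23410 probe sets with a symbol. Equal epithelial content means the same fit with the mean of the 23 epithelial markers of each insert, less the average over inserts, as a covariate. A gene with several probe sets was read from its brightest. Named are the estrogen readouts, the 12 genes of smallest p in each direction, up to 4 that passed from each list, and up to 6 in each direction that passed at equal content alone. Members of a list that did not pass are examples outside this rule. Most of them lie on the side of their list's median. The members and the 49 gene lists were chosen with earlier results of these data known. The labels do not say that replicates came from separate animals or cultures, so p-values measure the spread between these samples, which may be technical. Alternatives changed the weights, arrays, normalization, filters, probe sets, replicate block and covariates. The fits were tested on simulated data. Promoter sequences are from RefSeq on GRCm38.p6.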

Additional observations from a re-analysis of the deposited data

Results flagged for a closer look

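For 21 named genes the change with E2 differed between the layers by the interaction test (limma, adjusted p under 0.05). The epithelial change minus the stromal change, in log2 units, was 2.06 for Pgr, 2.52 for Oxtr, 1.89 for Igf1, 1.34 for Idh1, 2.73 for Akr1c14, 2.98 for Nrn1 and 1.28 for Btbd3. It was 1.98 for Tlnrd1, 1.65 for Kap, 1.55 for Pcp4l1, 1.81 for Bpifc, 1.24 for Gja1, 1.10 for Ak4, 1.19 for Krt23 and 1.20 for Socs2. It was -4.29 for Gabrp, -1.40 for Msln, -0.92 for Enc1, -1.69 for Itga3 and -1.28 for Pkp1. For Ccn4, which fell by 2.15 in stroma on the log2 scale, it was 1.18. These layer differences were fitted without the content covariate. With it, Gabrp, Msln, Itga3 and Pkp1 kept 59.3% to 69.5% of their epithelial fall, and Enc1 kept 87.5%. The epithelial arrays varied more between replicates than the stromal ones, with a median SD of 0.182 against 0.0952 with vehicle.

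Outside the comparison, 8 of the 13767 probe sets without a single symbol passed between E2 and vehicle when p-values were adjusted over all 35556, 5 of them higher and 3 lower.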

How the results depend on the processing

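The 144 probe sets that passed kept their sign under every alternative that tested them (142 of them under the filter on low values). None of the 144 had groups that overlapped. Leaving out, averaging or reweighting arrays could therefore not turn their signs, and such settings are no test of the sign. The number that passed varied. The cause of these shifts was not tested. The E2 response (144 calls) had 665 calls with no weights, 48 with the 6 epithelial arrays alone, 4524 with a weight per array, 244 after quantile normalization, 76 with the replicate number as a block, 14 with E2 replicates 1 and 2 averaged, 821 with the signal range as a covariate, 21 against vehicle replicate 3 alone, and 13 to 411 leaving out 1 array. The response at equal content (46 calls) had 305, 18 and 9 calls with no weights, epithelial arrays alone and a weight per array, 7 over all probe sets, 79 after quantile normalization, 3 with the replicate block, 25 with the leukocyte covariate, 86 with both covariates, 0 averaged (limma, 592 at an unadjusted p under 0.05), 423 with the signal range, and 0 to 392 leaving out 1 array. The layer difference (179 calls) had 4300 with a weight per array, 94 over all probe sets, 114 with the replicate block, 5 averaged, 479 with the signal range, 18 against vehicle replicate 3 alone, and 14 to 454 leaving out 1 array. The averaging, the signal range and the use of vehicle replicate 3 alone were chosen after seeing the data. Epithelial samples with the same replicate number had residual correlations of -0.29, 0.26 and 0.20. With 3 arrays in a group these cannot show whether the numbers pair the samples. The block thus shows only shared numbers. Signs turned for genes that had not passed: Esr1 (-0.0047), Fgf10 (-0.24) and Ltf (0.43) against vehicle replicate 3 alone, Ltf at equal content (0.26), Cftr without E2 replicate 3 (-0.03) and, without vehicle replicate 3, Trpv6 (-0.12), Cftr (-0.34), Gdpd2 (0.0059) and Fmod (0.0040). Without vehicle replicate 2 the first of these 4 differed by 1.12, the others by 0.72, -1.05 and -0.93.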
